A study of Mus musculus with 12 samples.

Results

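This account follows 9 genes of the C-type lectin receptor family that macrophages use to recognise sugars and damaged or microbial material: *Mrc1*, *Clec10a*, *Mgl2*, *Clec7a*, *Clec4n*, *Clec4d*, *Clec4e*, *Clec4a2* and *Clec5a*. They were listed by name, with no threshold on a measured value, but with earlier results of these data known. A probe on the array was matched to 8 of the 9, and 6 of those 8 were bright enough to test, among 20862 genes tested in all. *Clec7a*, which encodes dectin-1, the receptor for fungal beta-glucans, had no matched probe and was not analysed here. The cells were peritoneal macrophages of wild-type C57BL/6 mice aged 8 weeks, hybridised as 3 groups of 4 single-colour arrays: a vehicle control, IL4 (10 ng/ml), and the same dose of IL4 together with 50 µM emodin, a plant anthraquinone (the emodin arrays below). In every group replicates 1 and 2 were female and replicates 3 and 4 male. The series title names the question, which is whether emodin alters the alternative activation that IL4 brings about. The sample descriptions give 6 h of treatment while the protocol has the cells stimulated overnight, the design text of the series names blood leukocytes in place of peritoneal macrophages, and neither point is resolved here. Whether 1 mouse or a pool stood behind an array is not stated, so the p-values reflect only how far these arrays scatter, which may in part be technical. In such bulk RNA, fewer cells of a type and less RNA per cell cannot be told apart.

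C-type lectin receptors bind carbohydrate or other ligands outside the cell through a shared lectin fold. The mannose receptor, encoded by *Mrc1*, and the galactose-type lectins encoded by *Clec10a* and *Mgl2* mainly take up glycoproteins, and they are widely used as markers of IL4-activated macrophages. Dectin-2 (*Clec4n*), the receptor CLECSF8 (*Clec4d*) and Mincle (*Clec4e*) form a small gene family whose products signal through the Fc receptor gamma chain, the kinase SYK and the adaptor CARD9 towards inflammatory genes. *Clec4a2* encodes an inhibitory relative of these receptors, and *Clec5a* encodes a receptor that signals through the adaptor DAP12.

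The 8 probes fell into members that were bright throughout and members that were not seen. Values below are log2 intensity against the 75th percentile of intensity on the same array, so a value of 1 is a 2-fold step; they are compared between groups for 1 probe and never between probes. The 6 tested members lay well above background on all 12 arrays, so none of them entered through 1 group only. *Clec4a2* ranged from 6.42 to 19.0 in raw intensity and *Clec5a* from 5.69 to 15.0, and neither was well above background on any of the 12 arrays. No spot was saturated.

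Macrophage identity and array quality were checked before the members were read. Of 8 macrophage markers, 7 had a probe, and all 7 were well above background on all 4 arrays of each group. Their levels, summed as multiples of the 75th percentile, ran from 650 to 661 in control, 713 to 807 in IL4 and 663 to 787 with emodin. This sum follows the brightest probes, *Lyz2* and *Csf1r* (mean log2 values 8.31 and 7.92 in control). The markers did not move together. With emodin against IL4, 2 of the 7 were called higher and 3 lower, beside 39.4% of all genes higher and 26.5% lower. The 3 lower ones were *Fcgr1* at -2.89 ± 0.17, *Csf1r* at -0.55 ± 0.12 and *Mertk* at -0.57 ± 0.18 (SE, limma adjusted p = 5.07e-08, 0.00120 and 0.0166). With spike-in scaling all 7 were lower, beside 78.7% of all genes. With IL4 against control 2 were higher and 2 lower, beside 17.5% of all genes called. Of 5 eosinophil markers, *Epx* and *Prg2* were on no array, and of 8 lymphocyte markers, *Cd3d*, *Cd3g* and *Pax5* were on no array. The 75th percentile of intensity ran from 633 to 810 on control arrays, 761 to 813 on IL4 arrays and 447 to 516 on emodin arrays. Control and IL4 arrays shared slide 1 and the emodin arrays lay on slide 2, which means that emodin and slide cannot be told apart. IL4 arrays lay in row 1 of the slide and control arrays in row 2, so slide row and IL4 cannot be told apart either.

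Start-site sequence is given for the 4 tested members that the RefSeq promoter table holds, to show what lies at the starts of genes whose changes are described next; 7 of the 9 members are in that table, and *Clec10a* and *Clec4n* were not among them. Each window runs from 250 bases before the annotated start to 50 after it, 5′ to 3′ on the gene's strand, in build GRCm38.p6. *Mrc1* is chr2:14229164-14229463 on the plus strand, *Mgl2* is chr11:70130107-70130406 on the plus strand, *Clec4d* is chr6:123261857-123262156 on the plus strand and *Clec4e* is chr6:123289822-123290121 on the minus strand. Capitals mark the hexamer GAGGAA on either strand, which is the core bound by the myeloid factor PU.1.
Mrc1: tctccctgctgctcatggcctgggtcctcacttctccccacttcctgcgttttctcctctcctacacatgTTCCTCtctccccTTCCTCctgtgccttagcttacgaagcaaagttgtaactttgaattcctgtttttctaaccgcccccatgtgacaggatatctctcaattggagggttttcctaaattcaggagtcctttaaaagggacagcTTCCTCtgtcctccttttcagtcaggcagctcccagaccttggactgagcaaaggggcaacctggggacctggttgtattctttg
Mgl2: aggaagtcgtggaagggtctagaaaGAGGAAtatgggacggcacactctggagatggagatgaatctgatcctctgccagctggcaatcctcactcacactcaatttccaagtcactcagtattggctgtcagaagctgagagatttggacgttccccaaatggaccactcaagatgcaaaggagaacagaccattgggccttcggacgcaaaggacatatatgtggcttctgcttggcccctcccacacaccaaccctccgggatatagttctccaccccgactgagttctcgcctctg
Clec4d: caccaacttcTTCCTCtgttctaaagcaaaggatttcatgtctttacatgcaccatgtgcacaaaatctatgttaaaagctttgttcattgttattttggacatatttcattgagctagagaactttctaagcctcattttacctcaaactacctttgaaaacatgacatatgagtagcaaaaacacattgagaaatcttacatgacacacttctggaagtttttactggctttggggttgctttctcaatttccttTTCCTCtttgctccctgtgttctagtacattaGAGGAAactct
Clec4e: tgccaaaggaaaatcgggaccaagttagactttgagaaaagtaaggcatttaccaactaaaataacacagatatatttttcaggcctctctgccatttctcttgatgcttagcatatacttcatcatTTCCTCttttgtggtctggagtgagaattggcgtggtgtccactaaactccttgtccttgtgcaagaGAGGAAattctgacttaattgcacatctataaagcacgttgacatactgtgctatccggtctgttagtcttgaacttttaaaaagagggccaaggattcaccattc

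The hexamer occurred 3 times in the *Mrc1* window, 1 time in that of *Mgl2*, 3 times in that of *Clec4d* and 2 times in that of *Clec4e*. Each of these 4 windows thus held it, beside 28.3% of all 32851 promoter windows that hold it at least once. Occurrences per window were not counted over all windows, so the numbers of occurrences have no background here. Both strands were also searched for 3 other motifs. These were TTC, any 4 bases, GAA (the STAT6 type, in 6.95% of all windows), TTC, any 3 bases, GAA (the STAT type, in 8.30%), and TGANTCA (the AP-1 type, in 7.81%). None of the 3 was found in these 4 windows. The *Clec7a* and *Clec5a* windows held 1 STAT6-type match each, and the *Clec4a2* window held 1 STAT-type and 1 AP-1-type match. The hexamer occurred 1 time in the *Clec7a* window, 2 times in that of *Clec5a* and 0 times in that of *Clec4a2*. The searched motifs did not overlap within any window. GC content was 50.3% for *Mrc1*, 52.0% for *Mgl2*, 36.0% for *Clec4d* and 40.0% for *Clec4e*, beside a median of 52.7% over all windows. A match is a description of letters and not a bound site.

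IL4 alone split the receptors into opposite directions. The uptake receptors *Mrc1* and *Clec10a* rose 4.06-fold and 3.08-fold, and the dectin-2 family members *Clec4n*, *Clec4d* and *Clec4e* fell 2.80-fold, 2.60-fold and 4.40-fold. Of the 6 tested members, 5 were called, 2 higher and 3 lower, at an adjusted p below 0.05 in limma with Benjamini-Hochberg adjustment over all genes. Over all genes, 17.5% were called in this comparison, 8.98% higher and 8.56% lower (10.6% and 2.81% with spike-in scaling). The median difference of the 6 members was -0.50, beside -0.03 over all genes.

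*Mrc1* read 4.32, 4.18, 4.70 and 3.50 on control replicates 1 to 4 and 6.20, 6.24, 6.31 and 6.05 on IL4 replicates 1 to 4. Every IL4 array lay above every control array, and the control arrays were the more scattered, with replicate 4 lowest. The log2 difference was 2.02 ± 0.22 (SE, 4 arrays per group; limma adjusted p = 6.13e-05), at percentile 99.1 of all tested genes.

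*Clec10a*, which encodes the first of the galactose-type lectins, read 2.91, 2.98, 3.10 and 2.05 in control and 4.68, 4.47, 4.39 and 3.99 with IL4. The groups did not overlap, and replicate 4 was the lowest array of both. The log2 difference was 1.62 ± 0.21 (SE, 4 arrays per group; limma adjusted p = 0.000212). *Mgl2*, its neighbour and close relative, read 5.61, 5.53, 5.43 and 5.37 in control and 6.09, 5.99, 5.95 and 5.43 with IL4. Here IL4 replicate 4 lay within the control range, and the difference of 0.38 ± 0.17 (SE, 4 arrays per group) was not called (limma adjusted p = 0.155; 95% interval 0.01 to 0.74). Without IL4 replicate 4 it was 0.52 (limma adjusted p = 0.0393), and scaled by the spike-in probes it was 0.54 (limma adjusted p = 0.0370). The within-array ratio of *Clec10a* over *Mgl2*, in which a single scaling factor per array cancels, rose by 1.25 (exact permutation test, two-sided, p = 0.0286, the smallest that 4 arrays against 4 can give), so the 2 neighbouring genes responded unequally.

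The fall of the dectin-2 family under IL4 was present on every array. *Clec4n* read 2.40, 2.86, 2.37 and 2.71 in control and 1.10, 1.23, 1.03 and 1.03 with IL4, a difference of -1.49 ± 0.16 (SE, 4 arrays per group; limma adjusted p = 3.98e-05). *Clec4d*, whose product pairs with Mincle, read 7.84, 8.28, 8.06 and 8.18 in control and 6.54, 6.85, 6.80 and 6.65 with IL4, a difference of -1.38 ± 0.12 (SE, 4 arrays per group; limma adjusted p = 8.40e-06). For both genes no IL4 array reached the range of the control arrays. *Clec4e*, the receptor for mycobacterial cord factor and for a nuclear protein released by dying cells, read 5.09, 5.25, 4.80 and 5.41 in control and 3.24, 3.05, 2.66 and 3.04 with IL4. Its difference of -2.14 ± 0.18 (SE, 4 arrays per group; limma adjusted p = 7.00e-06) was larger than the other 2 and lay at percentile 0.0767 of all tested genes. In within-array ratios, *Clec4n* over *Clec4e* and *Clec4d* over *Clec4e* rose by 0.65 and 0.76 (exact permutation p = 0.0286 each), while *Clec4n* over *Clec4d* changed by -0.11 (exact permutation p = 0.314).

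**Figure D1:**
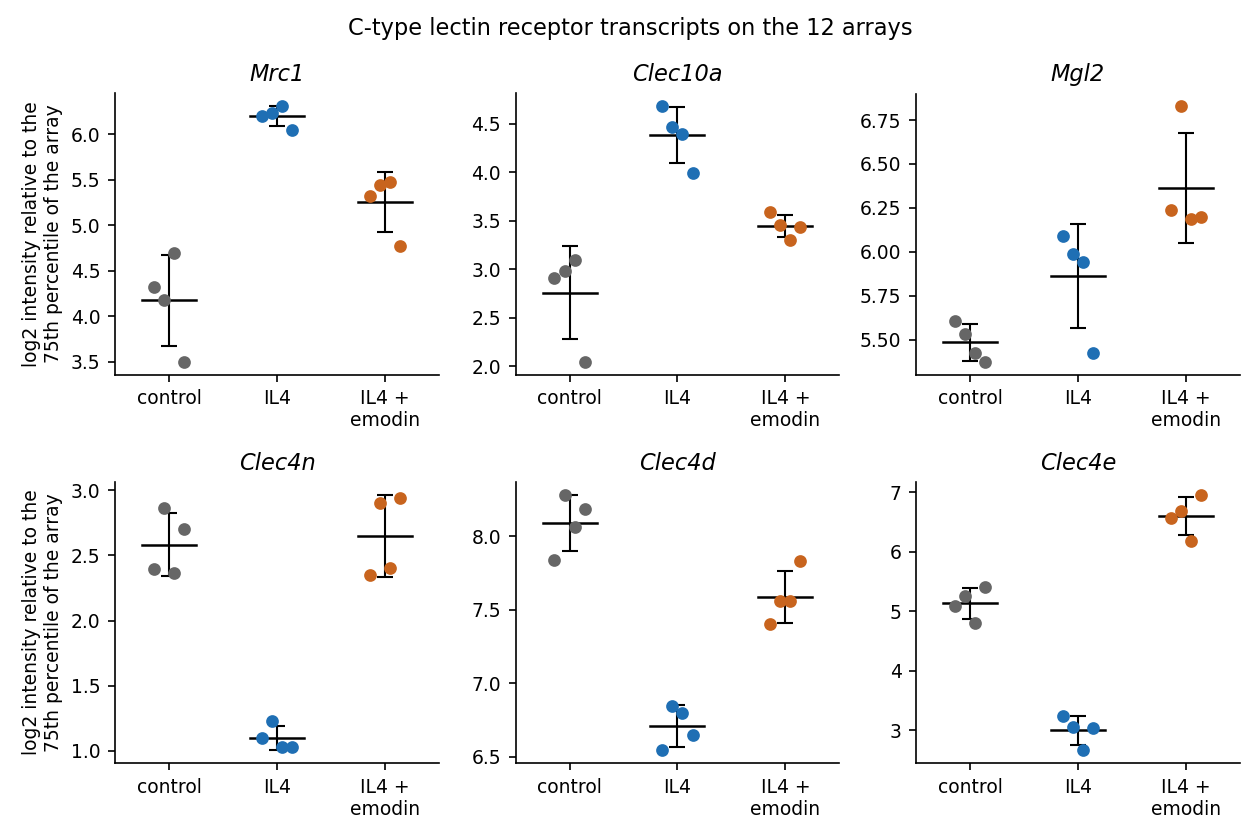
Levels of the 6 tested receptors on the 12 arrays, as log2 intensity against that array's 75th percentile (vertical axes differ between panels and do not start at 0); points are arrays, horizontal lines are group means and bars are SD, n = 4 per group. *Mrc1* and *Clec10a* were highest with IL4 alone, *Clec4n*, *Clec4d* and *Clec4e* were lowest there, and *Clec4e* was highest with emodin; scaled by spike-in probes, *Clec4d* with emodin no longer differed from IL4 alone and *Mgl2* lay lower with emodin than with IL4 alone.

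On the emodin arrays the receptors *Clec4e* and *Clec4n* were higher, and *Mrc1* and *Clec10a* lower, than with IL4 alone, under all scalings tried. No scaling separates emodin from slide, since the emodin arrays alone lay on slide 2. *Clec4e* rose 12.2-fold and *Clec4n* 2.93-fold, and *Mrc1* and *Clec10a* fell 1.92-fold and 1.91-fold. *Clec4d* also rose, 1.84-fold, and *Mgl2* 1.41-fold. With spike-in scaling *Clec4d* was no longer called (-0.16, limma adjusted p = 0.324) and *Mgl2* was lower (-0.54, limma adjusted p = 0.00602). All 6 tested members were called, 4 higher and 2 lower. That count is read against 65.9% of all genes called, 39.4% higher and 26.5% lower; the split was 29.4% and 30.9% after quantile normalisation. With spike-in scaling, where 3.72% of all genes were called higher and 78.7% lower, 2 members were higher, *Clec4e* and *Clec4n*, and 3 lower. The median of the members was 0.69, and that of all genes 0.17. These values share the IL4 arrays with the comparison of IL4 against control, and the 2 sets of values are not independent.

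*Clec4e* read 6.58, 6.69, 6.19 and 6.96 on emodin replicates 1 to 4, against 2.66 to 3.24 with IL4 alone. The lowest emodin array was above the highest array of both other groups. The difference from IL4 was 3.61 ± 0.18 (SE, 4 arrays per group; limma adjusted p = 1.47e-08), at percentile 99.6 of all genes, and it was 2.57 with spike-in scaling (limma adjusted p = 1.45e-07). *Clec4n* read 2.35, 2.90, 2.41 and 2.94 with emodin, all above the IL4 arrays. Its difference was 1.55 ± 0.16 (SE, 4 arrays per group; limma adjusted p = 4.12e-06) and 0.51 with spike-in scaling (limma adjusted p = 0.0213).

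*Clec4d* read 7.40, 7.56, 7.56 and 7.83 with emodin, between the IL4 arrays and the control arrays without overlapping either. Its difference from IL4 was 0.88 ± 0.12 (SE, 4 arrays per group; limma adjusted p = 4.71e-05). It was 0.40 after quantile normalisation (limma adjusted p = 0.00140) and -0.16 with spike-in scaling (limma adjusted p = 0.324), so its direction rested on the scaling. The ratio of *Clec4d* over *Clec4e* within an array, which a single factor per array leaves unchanged, averaged 3.71 ± 0.35 with IL4 and 0.98 ± 0.26 with emodin (SD, n = 4 each), a difference of -2.73 (exact permutation p = 0.0286), and -2.98 after quantile normalisation (same p). *Clec4d* and *Clec4e*, which lie next to each other, thus moved by unequal amounts under the 3 scalings.

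*Mrc1* read 5.33, 5.44, 5.48 and 4.77 with emodin, every array below the IL4 arrays and above the control arrays. Its difference from IL4 was -0.94 ± 0.22 (SE, 4 arrays per group; limma adjusted p = 0.00285), and -1.99 with spike-in scaling. *Clec10a* read 3.59, 3.46, 3.30 and 3.44 with emodin, likewise between the 2 other groups. Its difference from IL4 was -0.94 ± 0.21 (SE, 4 arrays per group; limma adjusted p = 0.00207), and -1.98 with spike-in scaling. The ratio of *Mrc1* over *Clec10a* differed by -0.01 between emodin and IL4 arrays (exact permutation p = 0.971).

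*Mgl2* differed from its neighbour again. It read 6.24, 6.83, 6.19 and 6.20 with emodin, every array above the IL4 arrays, with replicate 2 standing well above the rest. The difference of 0.50 ± 0.17 (SE, 4 arrays per group; limma adjusted p = 0.0198) was not called after quantile normalisation (0.22, limma adjusted p = 0.253), without emodin replicate 2 (0.35, limma adjusted p = 0.0511) or without IL4 replicate 4 (0.36, limma adjusted p = 0.0570), and with spike-in scaling it was -0.54 (limma adjusted p = 0.00602). The ratio of *Clec10a* over *Mgl2*, free of any single factor per array, averaged -1.48 ± 0.07 with IL4 and -2.92 ± 0.32 with emodin (SD, n = 4 each), a difference of -1.44 (exact permutation p = 0.0286), and -1.21 after quantile normalisation, which does not cancel in a ratio (same p).

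Markers of other cells that carry these receptors were read beside the members. Neutrophils also express *Clec4d* and *Clec4e*. Of 8 neutrophil markers, 7 had a probe and 5 were tested; 0 were called with IL4, and with emodin against IL4 *Camp* and *Mmp8* rose by 0.61 ± 0.14 and 0.53 ± 0.14 (SE; limma adjusted p = 0.00187 and 0.00504), beside 39.4% of all genes called higher. With spike-in scaling 0 of the 5 were higher and 4 lower, beside 78.7% of all genes lower. The summed level of the list ran from 92.7 to 111 in control, 91.4 to 112 with IL4 and 112 to 145 with emodin, and *Retnlg* was on no emodin array. This sum follows its brightest probe, *Csf3r* (mean 6.43 in control). With emodin against IL4 *Csf3r* differed by 0.25 ± 0.12 and *S100a8* by -0.29 ± 0.19, neither called (SE, limma adjusted p = 0.0806 and 0.187). With emodin against control 3 of the 5 were called higher and 1, *S100a8*, lower, beside 62.9% of all genes called. For small peritoneal macrophages and dendritic cells, the summed level of 10 markers ran from 77.6 to 147 in control, 125 to 189 with IL4 and 124 to 183 with emodin. It follows the brightest probes, *Itgax* and *H2-Ab1* (means 6.24 and 5.33 in control). Of the 10, 7 were tested. With IL4 2 were called higher (*Cd209a* and *Itgax*) and 2 lower (*Ccr2* and *Clec9a*), beside 17.5% of all genes called. With emodin against IL4 1 was called higher (*Clec9a*) and 2 lower (*Ccr2* and *Cd209a*), beside 65.9% of all genes called. With spike-in scaling these counts were 1 and 6, beside 78.7% of all genes lower. *Cd226* and *Xcr1* were on no array, *Flt3* on no IL4 or emodin array, *Ccr2* on no emodin array, and *Clec9a* on no IL4 array but on all 4 emodin arrays. The part of these cells in the differences of *Clec4d*, *Clec4e*, *Clec10a* and *Mgl2* was not tested.

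**Figure D2:**
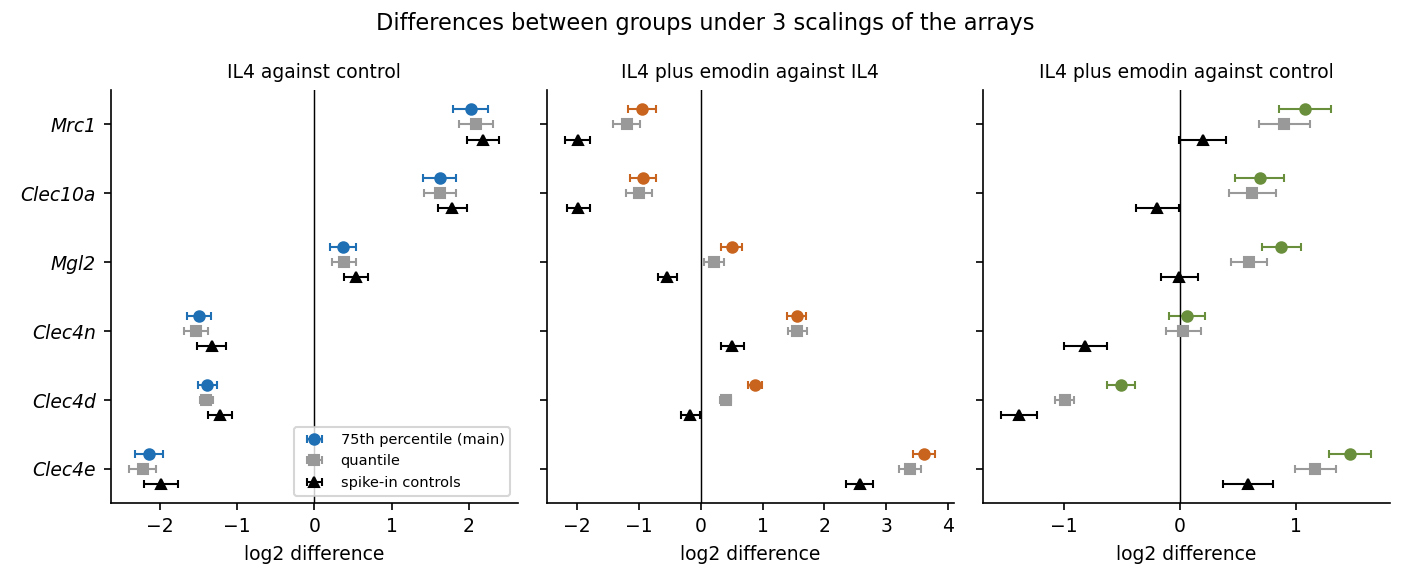
Log2 differences (horizontal axis) of the 6 receptors between groups, with bars for SE (n = 4 arrays per group), under 3 ways of scaling the arrays. IL4 against control changed little between the scalings, whereas spike-in scaling shifted all differences involving emodin downwards: with emodin against IL4 *Clec4d* and *Mgl2* crossed 0, and with emodin against control *Clec10a*, *Mgl2* and *Clec4n* did.

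The emodin arrays were dimmer as a whole, and the choice of scaling moved every difference that involves them. Spike-in scaling moved the median of all genes from 0.17 to -0.88 for emodin against IL4, from 0.15 to -0.72 for emodin against control, and from -0.03 to 0.13 for IL4 against control. Ratios between members were therefore computed, a choice made after seeing the data. For IL4 against control 13 of the 15 pairs of members gave an exact permutation p of 0.0286 (0.0330 after Benjamini-Hochberg adjustment over the 15), the exceptions being *Mrc1* over *Clec10a* (0.40, exact p = 0.0571) and *Clec4n* over *Clec4d*. For emodin against IL4 the count was again 13 of 15 pairs, the exceptions being *Mrc1* over *Clec10a* and *Mgl2* over *Clec4d* (-0.38, exact p = 0.200). For quantile-normalised values, 14 and 13 of the 15 pairs gave that p in these comparisons, with all 15 changes in the same direction. The 15 ratios share 6 genes and are not independent. No share over pairs of all genes was computed, so whether these counts are particular to the members is not known. When same-numbered control and IL4 arrays are taken as pairs, all 15 ratios changed one way in all 4 pairs, including both exceptions, but 4 pairs allow no exact p below 0.125. *Mrc1* over *Clec4e* averaged -0.96 ± 0.75 in control, 3.20 ± 0.31 with IL4 and -1.35 ± 0.61 with emodin (SD, n = 4 each). The control and emodin arrays overlapped in that ratio (exact p = 0.457), and both lay wholly below the IL4 arrays.

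**Figure D3:**
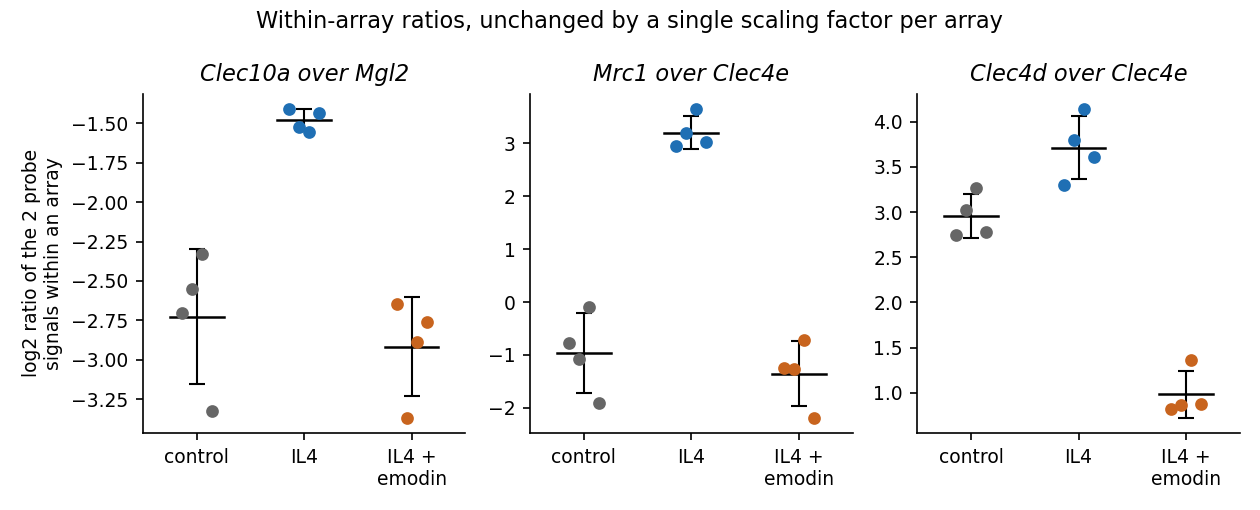
Log2 ratio of 2 probe signals within each array (vertical axes, not starting at 0), which a single scaling factor per array (as in percentile or spike-in scaling, not quantile) leaves unchanged; points are arrays, lines are means and bars are SD, n = 4 per group. *Clec10a* over *Mgl2* and *Mrc1* over *Clec4e* were high on the 4 IL4 arrays and overlapped between control and emodin, whereas *Clec4d* over *Clec4e* was lowest with emodin, below all control arrays.

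Set against control, each receptor stood at a different point on the emodin arrays, which again differ from control in slide as well. *Clec4e*, which had been below control with IL4 alone, was 2.77-fold above it, *Mrc1* was 2.11-fold above it and *Clec4d* 1.42-fold below; the value for *Mrc1* did not hold with spike-in scaling. Of the 6 tested members, 5 were called, 4 higher and 1 lower, against 62.9% of all genes, 37.3% higher and 25.6% lower (26.8% and 30.2% after quantile normalisation). With spike-in scaling 3 were called, *Clec4e* higher and *Clec4d* and *Clec4n* lower, against 4.65% of all genes higher and 71.3% lower. The median of the 6 was 0.78, beside 0.15 over all genes. This comparison shares its arrays with both of the others.

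*Clec4e* differed from control by 1.47 ± 0.18 (SE, 4 arrays per group; limma adjusted p = 2.19e-05) and by 0.59 with spike-in scaling (limma adjusted p = 0.0242). *Clec4d* differed by -0.50 ± 0.12 (SE, 4 arrays per group; limma adjusted p = 0.00296), by -0.99 after quantile normalisation and by -1.38 with spike-in scaling. *Clec4n* differed by 0.07 ± 0.16 (SE, 4 arrays per group; limma adjusted p = 0.729; 95% interval -0.28 to 0.41) with overlapping arrays, but by -0.81 with spike-in scaling (limma adjusted p = 0.00136). The 3 members of this family thus ended above, below and near control on the 75th-percentile scale. *Mrc1* differed by 1.08 ± 0.22 (SE, 4 arrays per group; limma adjusted p = 0.00126) and by 0.20 with spike-in scaling (limma adjusted p = 0.384). *Clec10a* differed by 0.69 ± 0.21 (SE, 4 arrays per group; limma adjusted p = 0.0138), by 0.45 without control replicate 4 (limma adjusted p = 0.0189) and by -0.19 with spike-in scaling (limma adjusted p = 0.362). *Mgl2* differed by 0.88 ± 0.17 (SE, 4 arrays per group; limma adjusted p = 0.000690) and by -0.0016 with spike-in scaling (limma adjusted p = 0.993). Of the 15 ratios, 7 gave an exact permutation p of 0.0286 and 0 of the 15 stayed below 0.05 after adjustment (smallest 0.0612). No share over pairs of all genes was computed for this count either.

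Ordered from high to low on the 75th-percentile scale, *Mrc1* and *Clec10a* ran IL4, emodin, control, with every neighbouring step called, although with spike-in scaling emodin and control no longer differed beyond their spread in either gene. *Clec4e* ran emodin, control, IL4 under all 3 scalings plotted. *Clec4d* ran control, emodin, IL4, and with spike-in scaling the step between emodin and IL4 was within its error. *Clec4n* ran emodin and control, which were not separated, then IL4, and with spike-in scaling control lay above emodin. *Mgl2* ran emodin, IL4, control, the last pair not separated, and with spike-in scaling IL4 was highest.

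The responses were compared between female and male arrays with a sex-by-treatment term in limma. No gene was called in either comparison (0% of genes; 272 genes for IL4 against control and 507 for emodin against IL4 at an unadjusted p below 0.05), and 0 of the 6 members had an unadjusted p below 0.05. For *Clec4e* the IL4 difference was -2.02 in females and -2.25 in males, and the emodin difference 3.49 and 3.73. For *Mrc1* the IL4 difference was 1.96 in females and 2.08 in males, and the emodin difference -0.83 and -1.05. With 2 arrays per sex and group, the standard error of the difference between sexes ran from 0.26 for *Clec4d* to 0.50 for *Mrc1*.

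Among themselves, the members formed 2 sets over the 12 arrays, given as a description since the groups themselves create it. *Mrc1* and *Clec10a* correlated at a Pearson r of 0.95, *Clec4n* with *Clec4e* at 0.91 and *Clec4n* with *Clec4d* at 0.90. *Mrc1* and *Clec4d* were opposed, at -0.93, and *Clec4d* with *Clec4e* reached 0.68. *Mgl2* went with neither set, its r lying between -0.25 and 0.43 with the other 5. Among 13191 other named genes, the pattern most like that of *Mrc1* was shown by *Plxdc2* (r = 0.97), *Lrrc32* and *P2ry1* (0.97 each), that of *Clec10a* by *Slc26a6* (0.96), *Rrs1* and *Wdr46* (0.95 each), and that of *Mgl2* by *Tspan7* (0.96), *Ogfod1* (0.95) and *Pdp1* (0.94). *Clec4n* was most like *Gngt2* (0.99), *Psen2* (0.98) and *Dio2* (0.97), *Clec4d* most like *Tmem154* (0.99), *Adssl1* and *Zfyve28* (0.98 each), and *Clec4e* most like *Arl5c*, *Sgms2* and *Gpr162* (0.99 each).

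The 3 dectin-2 family members lie side by side in the RefSeq gene order, *Clec4n*, *Clec4d* and then *Clec4e*, at the end of a run of related lectin genes on mouse chromosome 6 that begins with *Clec4a1*, *Clec4a3* and *Clec4a4*. The genes at the start of this run moved against those at its end; they were picked for their place after their values were seen. With IL4, *Clec4a1* rose by 0.86 ± 0.17 (SE; limma adjusted p = 0.00482), *Clec4a3* by 1.07 ± 0.11 (3.91e-05) and *Clec4a4* by 0.91 ± 0.13 (0.000539), with n = 4 per group. With emodin against IL4, *Clec4a1* differed by -2.03 ± 0.17 (SE; limma adjusted p = 1.12e-06), *Clec4a3* by -2.16 ± 0.11 (2.00e-08) and *Clec4a4* by -0.60 ± 0.13 (0.00197), and all 3 were also lower with quantile and spike-in scaling. *Clec4b1*, the next gene, differed by -0.23 ± 0.22 (SE; limma adjusted p = 0.531) with IL4 and fell by 0.55 ± 0.22 with emodin (SE; limma adjusted p = 0.0411). The 2 genes between it and the pseudogenes that precede *Clec4n*, *Clec4a2* and *Clec4b2*, did not pass the filter on dim probes. These relatives are similar in sequence, and whether a probe reads only its own gene was not tested.

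The wider family of 40 other C-type lectin genes, of which 23 were tested, showed no common direction. With IL4, 7 were called higher and 4 lower (11 of 23, beside 17.5% of all genes called), or 7 and 2 with spike-in scaling, with a median of -0.13 beside -0.03 over all genes. *Cd209e*, of the DC-SIGN group, was at least 6.81-fold higher, from below background on all 4 control arrays, and *Olr1*, the receptor for oxidised lipoprotein, rose by 2.01 ± 0.20 (SE; limma adjusted p = 2.12e-05). *Clec9a*, a receptor for dead cells on dendritic cells, was at least 1.42-fold lower with IL4. With emodin against IL4, 7 were called higher and 11 lower (18 of 23, beside 65.9% of all genes called), or 3 and 16 with spike-in scaling (beside 78.7% of all genes lower), with a median of -0.17 beside 0.17 over all genes. *Clec9a* was at least 4.22-fold higher with emodin, and *Clec2e* and *Ly75* rose by 2.69 ± 0.22 and 2.69 ± 0.39 (SE; limma adjusted p = 7.88e-07 and 7.16e-05), *Clec2e* being above background on 3 of 4 IL4 arrays. *Cd209e* was lower with emodin (limma adjusted p = 0.00198), but it was above background on 1 of 4 emodin arrays, so no size is given. These 4 kept their direction with quantile and spike-in scaling.

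**Figure D4:**
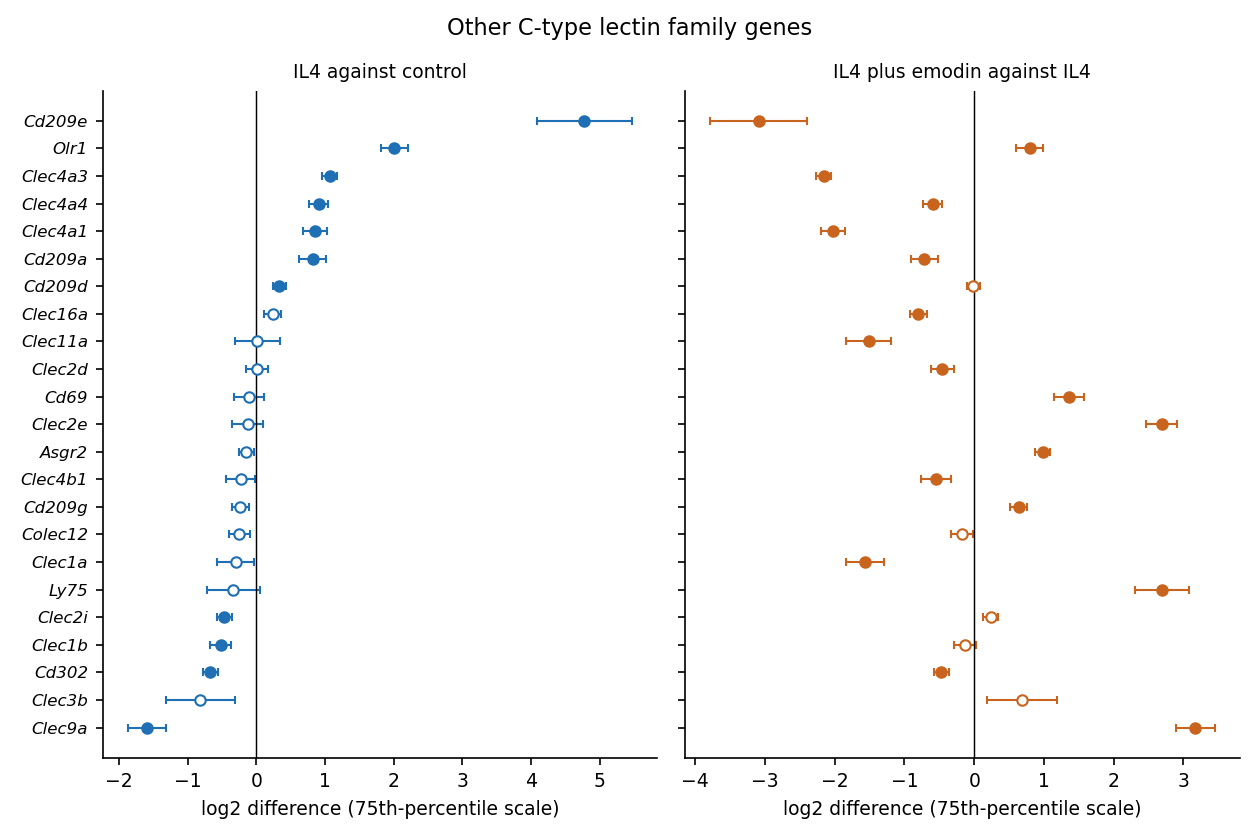
Fitted log2 differences with SE (n = 4 arrays per group) for the 23 tested genes of the wider C-type lectin family; filled points were called at an adjusted p below 0.05. *Cd209e* in control, *Clec9a* with IL4 and *Clec1a* with emodin were below background, as were *Cd209e* and *Clec11a* on 3 of 4 emodin arrays, so the plotted sizes that involve them are not measured folds, and with spike-in scaling *Asgr2*, *Cd69*, *Olr1* and *Cd209g* were not called higher with emodin.

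The adaptors and signalling genes of the family were taken as 27 genes, of which 26 were tested. With IL4, 5 were called higher and 4 lower (9 of 26, beside 17.5% of all genes called), or 5 and 1 with spike-in scaling (beside 10.6% and 2.81% of all genes), with a median of -0.04 beside -0.03 over all genes. The direct partners of these receptors were not called: *Fcer1g*, the Fc receptor gamma chain, differed by -0.24 ± 0.08 (SE, 4 arrays per group; limma adjusted p = 0.0653), *Syk* by -0.09 ± 0.12 (0.672) and *Card9* by 0.16 ± 0.07 (0.125). *Tyrobp*, which encodes DAP12, the adaptor of the *Clec5a* product, differed by -0.21 ± 0.10 (0.192). The rises were led by the kinase gene *Fyn* at 1.50 ± 0.11 (SE; limma adjusted p = 2.25e-06), the ubiquitin ligase gene *Cblb* at 1.23 ± 0.10 (5.67e-06) and *Rel*, above background on 2 of 4 control arrays, at 1.14 ± 0.17 (0.000505). *Nfkb1*, which like *Rel* encodes an NF-kB subunit, rose by 0.74 ± 0.12 (SE; limma adjusted p = 0.00116).

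With emodin against IL4, 5 signalling genes were called higher and 13 lower, 18 of 26 in all, a share near the 65.9% of all genes called. The split became 2 and 18 after quantile normalisation and 0 and 26 with spike-in scaling, where 78.7% of all genes were lower. The phosphatase genes *Inpp5d*, which encodes SHIP-1, and *Ptpn6*, which encodes SHP-1, fell, with differences of -1.61 ± 0.11 and -1.58 ± 0.07, as did *Nfatc1* at -1.59 ± 0.19 and *Fyn* at -1.39 ± 0.11 (SE, 4 arrays per group; limma adjusted p from 9.63e-09 to 1.87e-05). *Card9* fell by 0.52 ± 0.07 (SE; limma adjusted p = 2.65e-05). *Fcer1g* and *Tyrobp* were higher by 0.36 ± 0.08 and 0.49 ± 0.10 (SE; limma adjusted p = 0.00228 and 0.00124), but the differences were -0.32 and -0.22 after quantile normalisation and -0.69 and -0.55 with spike-in scaling, so their direction is not settled. *Syk* differed by -0.30 ± 0.12 (SE; limma adjusted p = 0.0528). The rise of *Clec4e* and *Clec4n* with emodin thus stood beside lower *Card9*, and beside *Fcer1g*, whose direction followed the scaling.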

How the data were processed

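Agilent single-colour arrays of 12 samples were analysed, 4 per group; groups, sex and replicate numbers came from the labels. Per the file headers, Agilent Feature Extraction 10.7.3.1 gave each spot's intensity and subtracted background on the same array. The authors' deposited table holds log2 values; recomputation from the scanner files (r at least 0.99997 on each array) gave quantile normalisation and centring on each probe's median. Matching symbols through RefSeq transcripts named 27509 of 55681 probes.

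Outlier spots were left out, values were log2 intensity minus the array's 75th percentile, and a probe was kept if some group had it well above background on each of its 4 arrays. The brightest probe stood for a gene. The 3 group means were estimated by limma 3.58.1 (R 4.3.3) over 12 arrays (9 residual degrees of freedom), two-sided, with Benjamini-Hochberg adjustment over 20862 genes, and called at an adjusted p below 0.05. The fit was tested on simulated data. Where a gene was below background on all arrays of 1 group, the fold is a bound ("at least") against the background limit, not the fitted value. Precision is limited by 4 arrays per group.

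The members and lists were chosen with earlier results of these data known. Named genes were all members, the 3 genes most like each, up to 4 called genes with the largest differences in each list, and direct partners or neighbours of members. The labels give each group replicates 1 to 4. For IL4 against control, deviations of same-numbered arrays correlated at 0.524, 0.311, 0.334 and 0.436. Apart from the replicate block listed below, the numbers were taken as pairs only where the direction of the ratios was counted by pair. The main limma fit and the exact permutation p of 0.0286 treated the arrays as unpaired. The number is also the slide column. Alternatives were quantile, spike-in and normexp scaling, no filter, the mean of all probes, the compared groups alone, a replicate block, sex as a covariate, another variance prior, the deposited table and leaving out each array. The mean signal was not used here for normexp; the median signal took its place.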

Additional observations from a re-analysis of the deposited data

Results flagged for a closer look

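*Mgl2* on emodin replicate 2 read 6.83 on the log2 scale relative to the 75th percentile, far from the other 3 emodin arrays, which read 6.24, 6.19 and 6.20. The gap to its nearest neighbour was 0.925 of the range of the group, above Dixon's 95% critical value for 4 samples. It was the only such array among 18 groups of 4 tested, 6 genes in 3 groups, and chance alone marks about 5% of groups. Without it, the difference of *Mgl2* between emodin and IL4 was 0.35 and was not called (limma adjusted p = 0.0511).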

How the results depend on the processing

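For IL4 against control the calls of *Mrc1*, *Clec10a*, *Clec4n*, *Clec4d* and *Clec4e* held under all alternatives run, and *Mgl2* alone changed side: it was called with spike-in scaling (0.54) and without IL4 replicate 4 (0.52). For emodin against IL4 the calls of *Mrc1*, *Clec10a*, *Clec4n* and *Clec4e* held under all alternatives run; *Clec4d* turned to -0.16 and *Mgl2* to -0.54 with spike-in scaling. *Mgl2* was also not called after quantile normalisation (0.22), normexp then quantile (0.25), in the deposited table (0.21), or without IL4 replicate 4 (0.36) or emodin replicate 2 (0.35). For emodin against control, spike-in scaling reduced the members called from 5 to 3, turned *Clec10a* to -0.19, *Mgl2* to -0.0016 and *Clec4n* to -0.81, and left *Mrc1* at 0.20; the cause was not tested. Leaving out each array in turn gave 5 to 6 members called for IL4 against control, 5 to 6 for emodin against IL4 and 5 to 5 for emodin against control. Over all genes, IL4 against control gave 3659 calls, and 5540 with normexp then the 75th percentile; without the filter on dim probes it gave 7321 of 37018 genes, and emodin against IL4 and against control gave 22743 and 19856, in place of 13750 and 13125. Calls of *Clec4a2* and *Clec5a* without that filter rest on signal below background. With the replicate number as a block, all member calls were the same in the 3 comparisons (5, 6 and 5 members), and 5302, 15096 and 14515 genes were called. Same-numbered arrays correlated at 0.438, 0.0934, 0.310 and 0.396 for emodin against IL4 and at 0.515, 0.0561, 0.336 and 0.375 for emodin against control. Each emodin array correlated best with the IL4 array of its own number, but emodin replicate 2 correlated best with control replicate 1. The number was not taken as a pairing in these 2 comparisons.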
